A study of Mus musculus with 2 samples.

Results

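Among the passage 5 (PC5) cultured brain pericytes, 995 of 9950 kept cells were grouped as Tagln- and Acta2-high cells, chosen by the summed UMIs of 3 genes of the contractile apparatus (Acta2, Tagln and Cnn1) as a share of all UMIs of the cell. A UMI (unique molecular identifier) marks 1 captured transcript. A cell was kept when its barcode had more than 1000 detected genes and less than 20% of its UMIs from mitochondrial genes, and the 10% of kept cells with the highest share were taken, with ties resolved by file order. The other 8955 kept PC5 cells served as the contrast. The series held 14699 kept cells in all, of which 4749 came from a passage 20 (PC20) culture.

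The cells were isolated from the brains of 6 female wild type C57BL/6N mice aged 6–8 weeks, pooled, plated on collagen and expanded to passage 5, first in an endothelial growth medium and then in a commercial pericyte medium. The study checked pericyte identity by PDGFRβ expression, and the staining it shows is of cells at a later passage. It describes no sorting of the passage 5 cells. PC20 cells came from a separate isolation of 6 mice, so passage and isolation cannot be told apart. Each passage was 1 droplet-based 3′ library, so PC5 cells are parts of 1 culture and not replicates, no test was made, and every interval given is a 95% interval for counting error only.

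Contractile cells of the vessel wall shorten by sliding actin filaments past myosin II, whose activity is set by phosphorylation of its regulatory light chain. Acta2 encodes smooth muscle α-actin, Tagln encodes the actin-binding protein transgelin (SM22α), and Cnn1 encodes calponin 1, which binds actin and slows myosin. All are classic targets of serum response factor with its myocardin-family partners, which bind a short A/T-rich element called the CArG box, and all are switched on in myofibroblasts and in many mesenchymal cells on stiff culture plastic as well as in smooth muscle. Capillary pericytes of the adult brain express little Acta2, whereas arteriolar smooth muscle cells express it strongly with Myh11, the smooth muscle myosin heavy chain.

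The score that chose the members had no gap at its lower bound. Its unit is counts per 1000000 UMIs of the cell (CPM), and its median was 109 CPM over all kept PC5 cells, 1113 CPM among members and 87.1 CPM among the others, and 2541 cells (25.5%) had none of the 3 transcripts. The 10 members just inside the bound scored 702 to 707 CPM and the 10 cells just outside scored 697 to 702 CPM. There were 123 members within 10% above the bound and 137 other cells within 10% below it. A bound set by rank need not fall at a gap, and whether the members hold a distinct group cannot be read from it.

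**Figure D1:**
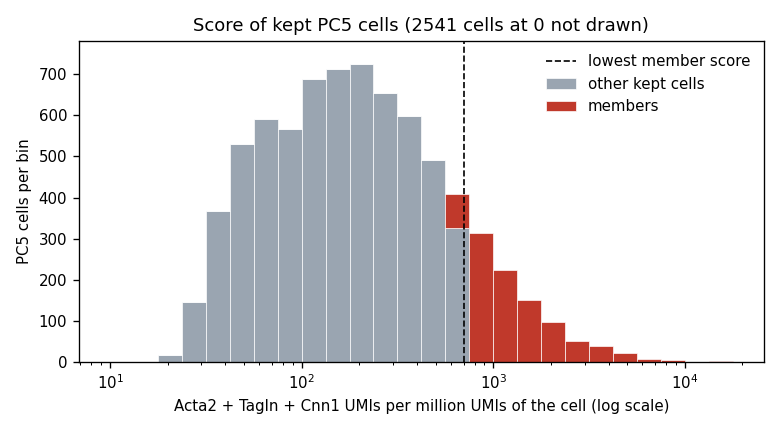
Number of kept PC5 cells (y axis) by score, the summed Acta2, Tagln and Cnn1 UMIs in CPM of the cell (x axis, log scale), with members in red, other cells in grey and the lowest member score as a dashed line; the 2541 cells scoring 0 are not drawn. Most drawn cells lie below the bound, and the right tail reaches 15697 CPM.

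Tagln carried most of the score. The members held 32022 UMIs of the 3 genes, of which Tagln gave 24227 (75.7%), Acta2 7688 (24.0%) and Cnn1 107 (0.334%), and together they held 50.7% of all such UMIs in kept PC5 cells. Of the members, 869 (87.3%) had Acta2 and Tagln without Cnn1, 63 (6.33%) had all 3 transcripts, 62 (6.23%) had Tagln only and 1 had Acta2 only. Cnn1 was thus a minor part of the selection. Summed over the 3 genes, a member held 2 to 325 UMIs with a median of 26, and 27 members held under 5, so some were chosen on very few counts.

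Tagln (chr9:45929619-45936058, mm10, minus strand) ranged from 0 to 221 UMIs per member with a median of 20, against a median of 1 and a highest value of 34 in the other cells. Acta2 (chr19:34241090-34255590, minus strand) ranged from 0 to 135 UMIs with a median of 5, against a median of 0 and a highest value of 18. Summed over cells, Tagln stood at 1094 CPM in members and 123 CPM in the others. These levels describe the choice itself, as do 347 against 31.5 CPM for Acta2 and 4.83 against 0.279 CPM for Cnn1 (chr9:22099216-22109630, plus strand).

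Whether the genes of the score rise in the same cells can be read by choosing on 1 gene and measuring the other. When 995 cells were taken by Tagln alone, Acta2 stood at 310 CPM in them and 35.1 CPM in the rest, a log2 ratio of 3.14 (3.09 to 3.19). When they were taken by Acta2 alone, Tagln stood at 914 CPM and 148 CPM, a log2 ratio of 2.63 (2.60 to 2.65). The sets chosen by 1 gene each shared 563 cells, which is 56.6% of each. Across the 9950 cells, Spearman's rank correlation between the Acta2 and Tagln shares of a cell was 0.54, and across the 5703 cells with at least 20000 UMIs it was 0.57. Among the members, which were chosen on the summed share of these genes and Cnn1, it was 0.21. All cells share 1 library, and these values are descriptions. Members were also chosen on a random part of each cell's UMIs and measured on the remainder, which gave log2 ratios of 2.99 for Tagln and 3.24 for Acta2, slightly below the 3.15 and 3.46 obtained when the same UMIs chose and measured.

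Depth was similar in both sets, with a median of 21755 UMIs per member and 21697 per other cell, and medians of 4386 and 4460 detected genes. The members held more shallow cells: 144 (14.5%) had under 10000 UMIs, against 861 (9.61%) of the others. When the kept cells were divided into 10 equal bins by depth, members made up 14.4% (12.2 to 16.7) of the shallowest bin and 6.93% (5.44 to 8.69) of the fourth, the highest and lowest shares. The median share of mitochondrial UMIs was 2.25% in members and 2.64% in the others. Leaving out all cells under 10000 UMIs kept each of the 30 genes farthest apart on its side and past a log2 ratio of 0.5 in size. The PC5 and PC20 libraries shared 20 cell barcodes, 2 of them among the members.

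The label of these cells was checked against genes restricted to smooth muscle. The defining genes were at or near 0 in members, although most were rarer still in the other cells. Myh11 had 26 UMIs in 7 of 995 members (0.704%, 0.283 to 1.44) and 20 UMIs in the 8955 others, and 4 members of the highest score rank band, positions 1 to 100, held 23 of the 26. The Myh11 levels were 1.17 and 0.0995 CPM, a log2 ratio of 3.56 (2.66 to 4.48). Kcnmb1, the β1 subunit of the smooth muscle BK channel, had 5 UMIs in members and 3 in the others (log2 ratio 3.92, 1.56 to 6.61), and Pln, phospholamban, had 1 and 2. Des, the muscle intermediate filament desmin, had 18 and 38 UMIs (2.10, 1.21 to 2.95) and Myocd, the myocardin coactivator, 19 and 69 (1.32, 0.51 to 2.07). The interval of the ratio for Pln spans both directions. Casq2, calsequestrin 2, had no UMI in 995 members, for which the exact interval of the share of cells with a UMI reaches 0.370%, and 17 UMIs in the others. That interval limits detection at this depth and not expression. The defining genes were too scarce to settle a smooth muscle identity, and the cells are called Tagln- and Acta2-high cells here.

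Of 15 genes on the list, 6 were detected in 10% or more of members or of other cells and count as measured, and 4 of these had a log2 ratio of members over others above 0.5, with a median of 1.31. The count and the median support nothing by themselves, because 3 of the 6, Actg2, Lmod1 and Itga8, passed the detection limit only through the members, where they are high. With detection counted over all kept PC5 cells 3 of the list were measured, 1 was above 0.5 and the median was 0.12. The background is 9277 measured genes outside the score, of which 1.67% were above 0.5, 2.26% were below -0.5, 0.269% were above 1 and 0.248% were below -1. The median over all of them was -0.08.

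Actg2, the enteric smooth muscle γ-actin, had the highest ratio of the measured smooth muscle genes at 3.61 (3.40 to 3.83), with 19.0 CPM in members and 1.56 CPM in the others. It was seen in 228 members (22.9%) and 3.12% of the other cells. Lmod1, leiomodin 1, a nucleator of actin filaments in smooth muscle, stood at 7.14 CPM against 1.44 CPM, a log2 ratio of 2.31 (2.02 to 2.59). Both are scarce transcripts that most members did not show. Itga8, the α8 integrin chain of mesenchymal and smooth muscle cells, had a log2 ratio of 1.43. Smtn, smoothelin, and Synpo2, synaptopodin 2, had ratios of 0.12 and -0.01.

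Actomyosin and stress fibre genes outside the score were higher in the members almost throughout. This list, like the others, was chosen with earlier results of these data known, so its shares are descriptions. Of 40 genes on this list 39 were measured, 35 had a ratio above 0, 16 were above 0.5 (41.0%, against 1.67% of all measured genes) and 0 were below -0.5. The median of the list was 0.43, against -0.08 over all measured genes. All 39 genes also met the limit with detection counted over all kept cells, where 1.35% of 9159 genes were above 0.5. Its summed level was 27304 CPM in members and 19495 CPM in the others, and most of that was Actb, cytoplasmic β-actin, at 14616 and 9792 CPM.

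Myl9 (chr2:156775420-156781658, mm10, plus strand), the regulatory light chain of smooth muscle and nonmuscle myosin II, had the highest ratio of the list and of the 15 higher genes named by the size rule. It ranged from 0 to 16 UMIs per member with a median of 1, and from 0 to 10 with a median of 0 in the others. Its level was 70.1 CPM against 15.0 CPM, a log2 ratio of 2.22 (2.13 to 2.31). The gene was detected in 57.7% of members and 22.8% of other cells, so the ranges of single cells overlap while the summed levels lie far apart. The 10 members richest in Myl9 held only 7.29% of its UMIs in the set.

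The tropomyosin Tpm2, which lies along the actin filament, stood at 175 CPM in members and 93.0 CPM in the others (log2 ratio 0.91, 0.86 to 0.96). The essential light chain Myl6 followed at 752 and 447 CPM (0.75), the LIM protein Csrp1 at 206 and 120 CPM (0.78) and vinculin (Vcl), which joins integrin adhesions to actin, at 230 and 135 CPM (0.77). The crosslinkers Flna and Actn1 had log2 ratios of 0.62 and 0.56 and the scaffold Palld 0.68. Tpm1 (0.40), the nonmuscle heavy chain Myh9 (0.43) and caldesmon (Cald1, 0.36) were higher by less than the fold, and the lowest values of the list were those of Myl12b and Csrp2, both at -0.26.

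**Figure D2:**
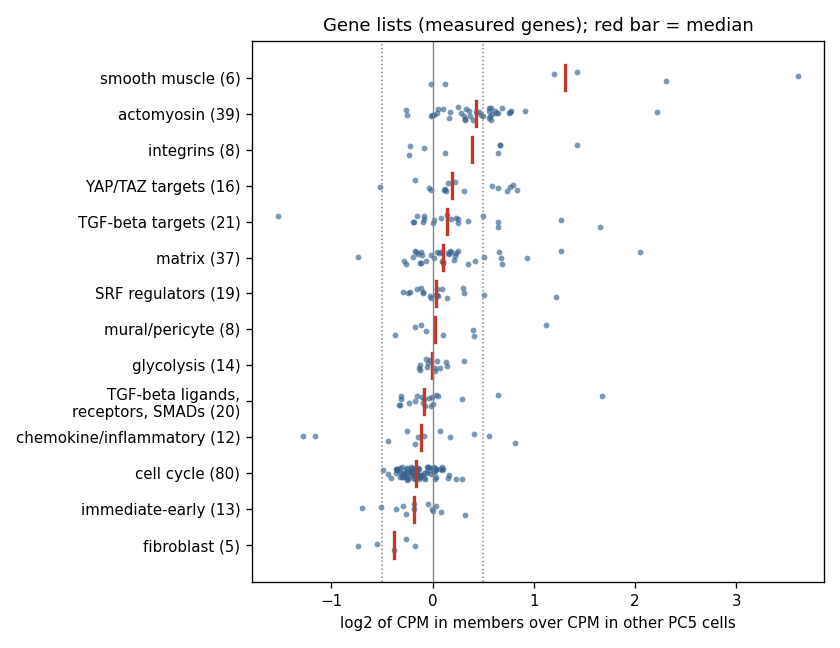
Log2 ratio of CPM in members over CPM in the other PC5 cells (x axis) for the measured genes of 14 lists, with the number of measured genes after each list's name; points are genes, red bars are list medians and dotted lines mark 0.5 and -0.5. The actomyosin median stands at 0.43, that of the smooth muscle list at 1.31 with 3 of 6 genes measured only through the members, and the fibroblast and cell cycle medians at -0.38 and -0.16.

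Promoter sequence was read for the genes of the actomyosin list because the score genes belong to the serum response factor programme. The windows are RefSeq sequence of GRCm38.p6, from 250 bases before to 50 bases after each gene start, and the CArG box was searched as an exact match, which reads alike on both strands. It was found in 535 of 32851 windows (1.63%), in 119 of the 7353 measured genes that had a window (1.62%) and in 7 of 35 actomyosin genes (20%), namely Myl9, Myl6, Actg1, Vcl, Cnn2, Lima1 and Fermt2. Among measured genes with a ratio above 0.5 it was found in 9 of 113 (7.96%), and among those below -0.5 in 1 of 139 (0.719%). The 9 are not separate from the actomyosin genes, since they include Myl9, Myl6, Vcl, Cnn2 and Fermt2. Of all 155 measured genes above 0.5, with or without a window, 124 also met the limit with detection counted over all kept cells. The part of serum response factor in these shares was not tested. None of 11 windows of the smooth muscle list held it, nor did those of Acta2 and Cnn1. Tagln, which carried most of the score, was not searched here. A match is a description of letters, and its absence says only that the exact letters are not in this window. The stretches around the match are shown for 5 of the actomyosin genes and for Fhl1, 5′ to 3′ on the strand of the gene, with the CArG box in capitals.
Myl9, chr2:156775278-156775337, plus strand: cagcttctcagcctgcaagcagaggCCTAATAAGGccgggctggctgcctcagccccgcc
Myl6, chr10:128493025-128493084, minus strand: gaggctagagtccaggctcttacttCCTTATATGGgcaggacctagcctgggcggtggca
Vcl, chr14:20929148-20929205, plus strand: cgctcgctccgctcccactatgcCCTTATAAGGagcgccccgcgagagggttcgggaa
Cnn2, chr10:79988519-79988578, plus strand: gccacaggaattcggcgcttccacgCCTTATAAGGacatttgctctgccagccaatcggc
Actg1, chr11:120348551-120348610, minus strand: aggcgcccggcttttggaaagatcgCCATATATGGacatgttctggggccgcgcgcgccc
Fhl1, chrX:56779556-56779615, plus strand: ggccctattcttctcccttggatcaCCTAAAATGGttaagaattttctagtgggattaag

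Counted from the RefSeq gene starts on which the windows rest, which can differ from the GENCODE positions given for genes, the first base of the CArG box lies 161 bases before the start of Myl9, 50 before that of Myl6, 227 before that of Vcl and 102 before that of Fhl1. Of the actomyosin genes shown, Myl9, Vcl, Myl6 and Cnn2 were past the fold, with log2 ratios of 2.22, 0.77, 0.75 and 0.56. Actg1, cytoplasmic γ-actin, carries the box and had a ratio of 0.32. Of the 2 box-carrying genes not shown, Fermt2, the adhesion protein kindlin 2, had a ratio of 0.64 and Lima1, an actin-bundling LIM protein, of 0.05, so a box did not go with a higher level in every case. Fhl1, a LIM-domain protein that binds transcription factors and the sarcomere, is shown as the other gene among the 15 highest with a box and stood at 156 CPM in members and 66.7 CPM in the others, a log2 ratio of 1.22 (1.17 to 1.28).

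Most measured transcripts of the regulators themselves lay near the background. The list held serum response factor, its cofactors and the small GTPases and kinases upstream of them, and 19 of 21 genes were measured. Of these, 2 (Fhl1 and Klf5) were above 0.5 (10.5%, against 1.67% of all measured genes), 0 were below -0.5 and the median was 0.04. Srf stood at 26.9 CPM in members and 24.3 CPM in the others (0.15, 0.02 to 0.27). The myocardin-related factors Mkl1 and Mkl2, which carry the actin signal to the nucleus, had ratios of -0.03 and -0.30. Myocd itself, too rare to be measured, had the ratio of 1.32 given above.

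Some matrix and adhesion genes were among the highest ratios. Thbs1, thrombospondin 1, a secreted glycoprotein that activates latent TGF-β, ranged from 0 to 331 UMIs per member with a median of 2, against 0 to 116 and a median of 1. Its level was 427 CPM in members and 103 CPM in the others, a log2 ratio of 2.05 (2.01 to 2.08). Tnc, the adhesion-modulating matrix protein tenascin C, stood at 276 and 114 CPM (1.27), and Tgm2, a transglutaminase that crosslinks matrix proteins, at 105 and 44.9 CPM (1.23).

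Most of the matrix list lay between the folds. Of 40 genes 37 were measured and 29 lay between 0.5 and -0.5. Above 0.5 were 7 (18.9%, against 1.67% of all measured genes), 1 was below -0.5 and the median was 0.10. Collagen XII (Col12a1, 0.93), lysyl oxidase (Lox, 0.69), fibulin 5 (Fbln5, 0.67) and matrix Gla protein (Mgp, 0.66) were above the fold. The main fibrillar collagens were not, with Col1a1 at 0.23 and Col3a1 at -0.17. Decorin (Dcn), a proteoglycan that decorates collagen fibrils, was the gene below the fold at -0.74, with 32.0 CPM in members and 53.4 CPM in the others.

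Integrin chains were partly higher. Of 14 subunits 8 were measured and 4 were above 0.5 (50%, against 1.67% of all measured genes), with a median of 0.39. Itga8 met the detection limit only through the members. With detection counted over all kept cells, 3 of 7 were above 0.5, against 1.35% of all genes, and the median was 0.13. Itgb1, the common β1 chain, stood at 1159 CPM in members and 728 CPM in the others (0.67), and its partner Itga5, which forms the fibronectin receptor with it, at 111 and 70.1 CPM (0.66). Itgb5, a chain of a vitronectin receptor, had a log2 ratio of 0.65, and Itga3 and Itga6, laminin-binding chains, had ratios of -0.23.

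So were some targets of the mechanosensitive coactivators YAP and TAZ. All 16 genes of the list were measured. Of them 6 were above 0.5 (37.5%, against 1.67% of all measured genes), 1 was below -0.5 and the median was 0.19. Ankrd1 stood at 107 CPM in members and 60.1 CPM in the others (0.83), Cyr61 at 178 and 107 CPM (0.73) and Ctgf at 351 and 225 CPM (0.64). The gene below the fold was Igfbp3 at -0.52.

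TGF-β genes did not move as 1 group. All 21 TGF-β target genes were measured. Of them 4 were above 0.5 (19.0%, against 1.67% of all measured genes), 1 was below -0.5 and the median was 0.14. Besides Tnc and Ctgf, whose values are given above, Itgb5 was among the higher ones, at 35.7 CPM in members and 22.8 CPM in the others. Fn1, fibronectin, stood at 645 and 506 CPM (0.35) and Pmepa1, which dampens SMAD signalling, at 181 and 129 CPM (0.49), both short of the fold.

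Tgfbi, the TGF-β-induced adhesion protein, lay in the opposite direction at 18.2 CPM in members and 52.6 CPM in the others, a log2 ratio of -1.53 (-1.67 to -1.38). Of 25 ligand, receptor and SMAD genes 20 were measured, with a median of -0.08. Below -0.5 were 0, and above 0.5 were 2 (10%, against 1.67% of all measured genes). The 2 were Inhba, the activin A subunit, at 125 and 79.5 CPM (0.65), and Fst, follistatin, which binds and neutralizes activin, at 32.5 and 10.2 CPM (1.67), a gene that met the detection limit only through the members. The Fst level rested on few cells, since 43.2% of its UMIs in members lay in 10 of them. The ligand gene Tgfb1 had a ratio of -0.17 and the receptor gene Tgfbr2 -0.33.

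Other higher genes named by the size rule serve a range of roles. Ntn4, a laminin-related netrin of basement membranes, had a log2 ratio of 1.55, the secreted serine protease Prss23 1.29 with 282 against 116 CPM, and Nkain4, which interacts with the sodium pump, 1.27. The orphan receptor Gpr176 had 1.14, the secreted matrix protein Ccdc80 0.94, Ddah1, which degrades an inhibitor of nitric oxide synthesis, 0.94 and the actin-stabilizing small heat shock protein Hspb1 0.92 with 157 against 83.0 CPM. All stayed above 0.5 without the 10 richest cells of each set.

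**Figure D3:**
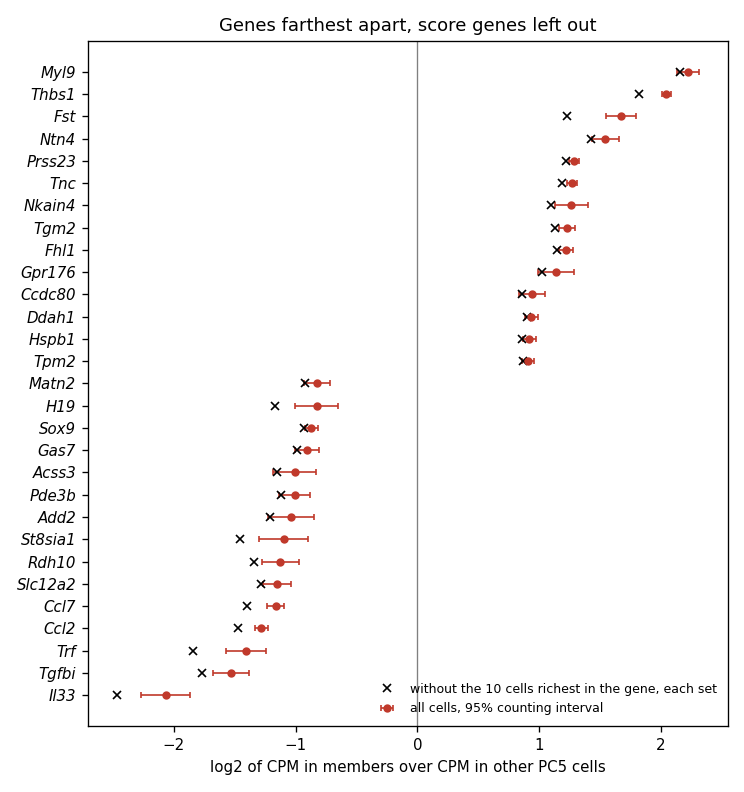
Log2 ratio of CPM in members over CPM in other PC5 cells (x axis) for the genes of the size rule (y axis); red points and bars are the ratio with its 95% counting interval and crosses the ratio without the 10 cells richest in the gene in each set. Myl9 is highest at 2.22 and Il33 lowest at -2.07, and Fst shifts from 1.67 to 1.23.

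Among the lower genes were an alarmin and 2 chemokines. Il33, which encodes interleukin 33, a nuclear cytokine released by damaged stromal cells, ranged from 0 to 8 UMIs per member and from 0 to 119 per other cell, both with a median of 0. Its level was 9.12 CPM in members and 38.2 CPM in the others, a log2 ratio of -2.07 (-2.27 to -1.86). Ccl2, the monocyte chemoattractant, ranged from 0 to 69 UMIs per member with a median of 0, against 0 to 474 and a median of 2, and stood at 132 and 321 CPM (-1.28, -1.34 to -1.23). Its neighbour on chromosome 11, Ccl7, stood at 75.4 and 169 CPM (-1.16).

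The chemokine and inflammatory list as a whole went both ways. Of 22 genes 12 were measured, 5 higher and 7 lower in members, with a median of -0.11. Above 0.5 were 2 (16.7%, against 1.67% of all measured genes). Below -0.5 were 2 (Ccl2 and Ccl7), against 2.26% of all measured genes. The 2 above 0.5 were Il6, interleukin 6, at 10.2 and 5.80 CPM (0.81) and Ptgs2, cyclooxygenase 2, at 186 and 127 CPM (0.56). Vcam1, a leukocyte adhesion molecule, and Nfkbia, the NF-κB inhibitor, had ratios of 0.07 and -0.08.

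Further genes on the lower side included Sox9, a transcription factor of chondrogenic and neural crest lineages, at 133 CPM in members and 243 CPM in the others (-0.87). Trf, transferrin, had a log2 ratio of -1.41, the ion cotransporter Slc12a2 -1.15 and Rdh10, which makes retinaldehyde, -1.13. The sialyltransferase St8sia1 (-1.10), the membrane skeleton protein Add2 (-1.04), the phosphodiesterase Pde3b (-1.01), the acyl-CoA synthetase Acss3 (-1.01), the cytoskeletal regulator Gas7 (-0.91), the imprinted noncoding RNA H19 (-0.82) and the matrix protein Matn2 (-0.82) completed the 15. Trf was unevenly spread, with 35.9% of its UMIs in members in 10 cells.

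Some of these genes changed along most of the score, and others only near its upper end. In 10 equal bins of 995 cells ordered by score, Myl9 went from 70.1 CPM in the members through 29.9 CPM in the next bin and 13.6 CPM in the fifth to 10.1 CPM in the lowest. Ccl2 went the other way, from 132 through 192 and 281 to 448 CPM. It did not rise at every step, with 242 CPM in the third bin, 229 CPM in the fourth and 495 CPM in the ninth. Tpm2 was higher only in the upper bins, with 175 CPM in the members, 119 CPM in the second bin and 93.4 CPM in the fourth, and little further change to 85.0 CPM in the lowest. Cells scoring 0 were ordered by file position, so the lowest bins differ in nothing the score measured. The second bin, whose cells miss the bound, already stood nearer to the middle bins than to the members for Thbs1, with 184 CPM against 427 CPM in the members and 97.3 CPM in the fifth bin.

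**Figure D4:**
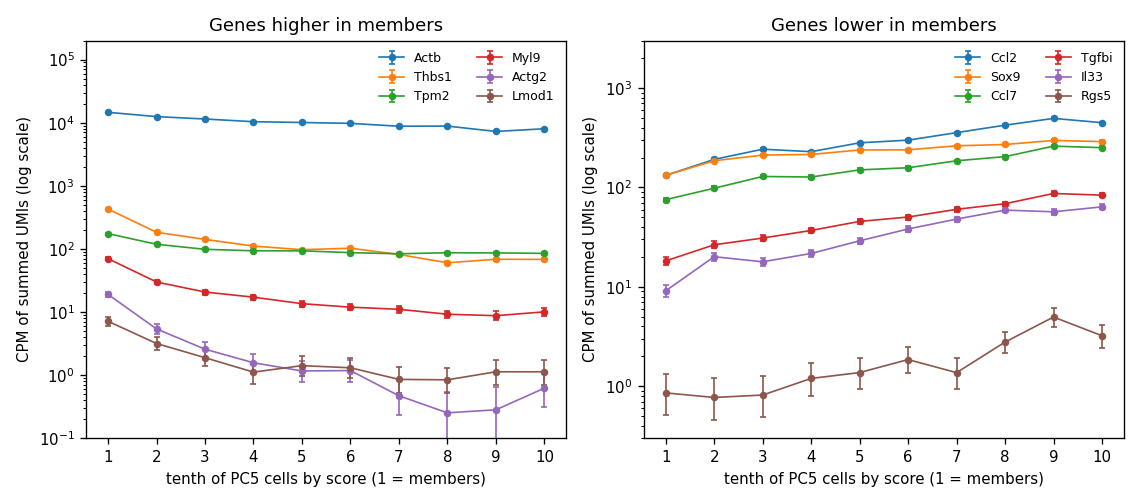
CPM of summed UMIs (y axes, log scale) in 10 equal bins of kept PC5 cells by score (x axes, 1 for the members, 10 for the lowest), for 6 genes higher in members (left) and 6 lower in members (right); bars are 95% counting intervals. Myl9 falls from 70.1 to 10.1 CPM and Ccl2 rises from 132 to 448 CPM.

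Within the members the same order was seen, and they were far from uniform. In score positions 1 to 100, 101 to 400 and 401 to 995, Myl9 stood at 179, 83.7 and 49.2 CPM and Actg2 at 72.9, 23.2 and 10.0 CPM. Thbs1 stood at 1058, 584 and 269 CPM. For these 3 genes the highest 100 members stood farther from the lowest 595, as a ratio, than those did from the next bin of non-members. Ccl2 stood at 78.0, 106 and 152 CPM. Cspg4 did not follow the score inside the set, with 9.68, 12.2 and 10.3 CPM.

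Pericyte genes were mixed. Of 19 genes of the mural and pericyte list 8 were measured. Of these 1 was above 0.5 (12.5%, against 1.67% of all measured genes), 0 were below -0.5 and the median was 0.02. The 1 above was Cspg4, seen in 17.3% of members and 9.29% of the other cells, so that it met the 10% limit in the members and not in the others. Pdgfrb, the PDGF receptor that defines mural cells and was the marker stained in the study, had 47.4 CPM in members and 44.3 CPM in the others, a log2 ratio of 0.10 (0.00 to 0.19). Cspg4, which encodes the proteoglycan NG2, stood at 10.8 and 4.97 CPM (1.12, 0.91 to 1.32). Mcam (CD146), an adhesion molecule of mural and endothelial cells, was seen in 9.35% of members and so lay just below the limit for measured genes, with 5.87 and 1.58 CPM (1.89, 1.59 to 2.19).

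Rgs5, a regulator of G protein signalling typical of brain pericytes in the animal, had 19 UMIs in members and 386 in the others, a ratio of -1.16 (-1.91 to -0.50). The channel genes Kcnj8 and Abcc9 had 1 and 0 UMIs in members, too few to give a direction. The Kcnj8 ratio of -0.40 ran from -0.95 to 0.63 under the alternatives. Notch3, a receptor required by mural cells, had 14.2 and 10.8 CPM (0.40), and Cd248, endosialin, 38.5 and 29.0 CPM (0.41). Rgs5 stood at 0.858 CPM in members, below the 1.92 CPM in the others.

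Markers of other cell types were counted in the same way. On the fibroblast list 5 of 10 genes were measured, 0 were above 0.5 and the median was -0.38. Below -0.5 were 2 (Dcn and Pdgfra), against 2.26% of all measured genes. Pdgfra, the other PDGF receptor, stood at 62.5 CPM in members and 91.5 CPM in the others. On the endothelial list 4 of 10 were measured and none passed the fold in either direction, with a median of 0.15. Its most abundant gene was Cdh5, VE-cadherin, at 125 and 173 CPM, whereas the defining markers Pecam1 and Cldn5 had 14 and 2 UMIs in members and Tie1 had 0.

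The microglia and blood list had 0 genes measured and summed to 4.56 CPM in members and 4.31 CPM in the others, most of it Cx3cr1, with Ptprc, Adgre1 and Tyrobp at 0 in members. The oligodendrocyte list also had 0 measured and summed to 4.83 and 5.10 CPM, most of it Mbp, with Mobp, Mag and Mog at 0 in members. On the astrocyte list 2 of 7 were measured, with Slc4a4 at -0.00, and Gfap and Aqp4 had 34 and 2 UMIs in members. On the neuronal list 2 of 6 were measured, Stmn2 at 0.72 and Tubb3 at 0.45, while Rbfox3 and Syt1 had no UMI in members. The part of these transcripts in the differences above was not tested.

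Proliferation genes lay close to the background. Of 93 S and G2/M genes 80 were measured, 64 had a ratio below 0, none passed 0.5 in either direction and the median was -0.16, against -0.08 over all measured genes. An Mki67 or Top2a UMI, transcripts of dividing cells, was found in 413 members (41.5%, 38.4 to 44.6) and 4062 other cells (45.4%, 44.3 to 46.4). After each cell was thinned to 9500 UMIs the shares were 30.9% of 861 members and 34.4% of 8159 others. The cell cycle median was -0.030 with members chosen by Acta2 alone, where the share with an Mki67 or Top2a UMI was 45.1% in members and 45.0% in the others, and with the top 20% by score the shares were 45.2% and 44.9%.

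Of 7 CDK inhibitor genes, all measured, 0 were above 0.5 and 1 was below -0.5, namely Cdkn1c (p57) at 4.97 and 11.2 CPM (-1.17). The inhibitors used as marks of arrest, Cdkn1a (p21) and Cdkn2a (p16 and p19), had 395 and 394 CPM and 532 and 559 CPM. Immediate-early genes had 13 of 15 measured, 0 above 0.5, 2 (Egr3 and Jun) below -0.5 and a median of -0.18. All 14 glycolysis genes lay between the folds with a median of -0.00. Of 14 ATF4 target genes 12 were measured, with 1 above (Asns, 0.53), 1 below (Vldlr, -0.61) and a median of 0.12. For these lists the shares over all measured genes were 1.67% above 0.5 and 2.26% below -0.5.

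Few PC20 cells reached the score of the PC5 members. The bound of 702 CPM was met by 62 of 4749 PC20 cells (1.31%, 1.00 to 1.67), where Tagln itself was nearly absent at 1.68 CPM in the top 10% of cells by the same score. The lowest score of those 475 cells was 119 CPM, so their score rested mainly on Acta2 and Cnn1. Tagln gave 75.7% of the score UMIs of the PC5 members, so the bound and the ranking rest on largely different genes in the libraries. In the 475 cells, 17 of 39 measured actomyosin genes were above 0.5 and the median was 0.40. The PC20 background was 3.83% of 10096 genes above 0.5. Myl9 stood at 17.0 CPM and 0.895 CPM in the rest (4.24) and Lmod1 at 13.4 and 1.83 CPM (2.88), but they were seen in only 2.95% and 4.89% of the rest and met the 10% detection limit only through the cells chosen. With detection counted over all kept PC20 cells, which leaves out Myl9, 16 of 38 actomyosin genes were above 0.5 against 2.97% of all genes, and the median was 0.40. Tpm2 (0.50), Tnc (0.24) and Fst (0.47) had smaller ratios in PC20 than in PC5, a difference that was not tested.

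**Figure D5:**
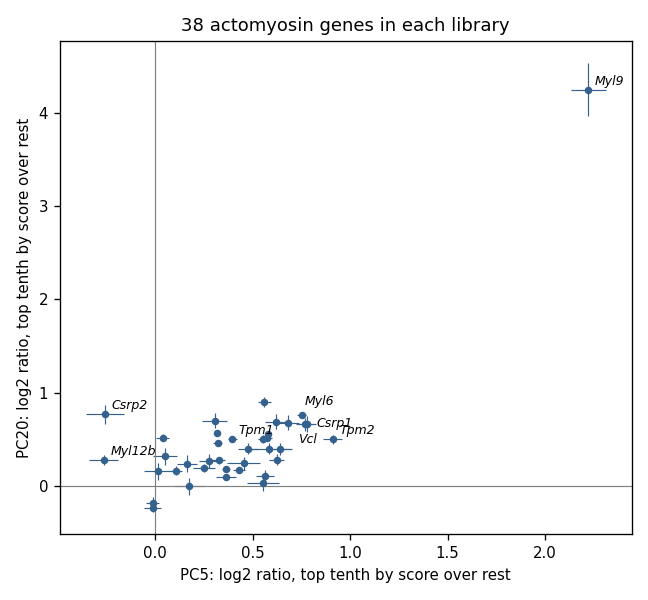
Log2 ratio of the top 10% of cells by score over the rest in PC5 (x axis) and in PC20 (y axis) for 38 actomyosin genes measured in both libraries; bars are 95% counting intervals. The score rests mainly on Tagln in PC5 and hardly on it in PC20. Of these genes 34 are above 0 in both. The share of all genes above 0 in both was not counted, and the medians over all measured genes are -0.08 in PC5 and -0.02 in PC20. The point at 2.22 in PC5 and 4.24 in PC20 is Myl9, which met the detection limit in PC20 only through the cells chosen.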

How the data were processed

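The deposited files hold raw UMI counts per gene and barcode for each library, made by the authors with CellRanger 5.0.1 (5.0 in the submitters' notes) on mm10; the annotation release is not given in the sources used here. The PC5 file held 10629 barcodes and 31053 genes, and kept cells were set by the filter the study states, more than 1000 genes and under 20% mitochondrial UMIs. The members and gene lists were chosen with earlier results of these data known.

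UMIs were summed over the 995 members (22140243 UMIs) and the 8955 other cells (200914030 UMIs) and expressed as CPM. Log2 ratios carry exact conditional binomial intervals, levels exact Poisson intervals and shares exact Clopper-Pearson intervals, all at 95%. With 1 library per passage no test across samples was possible, and a log2 ratio past 0.5 or -0.5 is a description of size. Genes counted had a UMI in at least 10% of cells of either set. The genes named were the score genes, those of 22 lists, and the 15 highest and 15 lowest ratios among genes at 20 CPM and in 10% of cells of the higher set, without pseudogenes and unnamed models. No doublet caller was used, and cells above the 95th percentile of UMIs were left out as an alternative. Positions are GENCODE M21 and promoters RefSeq GRCm38.p6. The ratio step was checked on simulated data. Python 3.11.15, numpy 2.4.6, scipy 1.17.1 and pandas 2.3.3 were used. Alternatives varied depth, weighting, filter, score genes and bound. Leaving out cells under 10000 UMIs or the 10 cells richest in a gene, and counting detection over all kept cells of a library, were chosen after seeing the data. A few genes that these rules name are not reported here, though the counts include them.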

Additional observations from a re-analysis of the deposited data

Results flagged for a closer look

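Barcodes that missed the gene filter carried the score genes as well. In the 673 PC5 barcodes with 1000 genes or fewer, which held 904989 UMIs and enter no comparison, Acta2 stood at 164 CPM and Tagln at 377 CPM, against 62.8 CPM and 219 CPM in kept cells, and 3 counts in them would be 3.31 CPM. Myl9 stood at 42.0 CPM there and 20.5 CPM in kept cells, whereas Actb (7817 and 10271 CPM), Thbs1 (45.3 and 136 CPM) and Ccl2 (124 and 302 CPM) were lower in them. Their pooled share of mitochondrial UMIs was 10.9%, against 2.40% in kept cells, but the median barcode had 1.05%, against 2.60% in the median kept cell.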

How the results depend on the processing

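All 30 genes of the size rule kept their sign and stayed past 0.5 under each of the 14 alternatives at gene level. The count of genes above 0.5 (155) was 515 and 85 when genes seen in at least 1% or 25% of cells were counted, since the genes tested change, and otherwise ran from 104 on the held-out UMIs to 222 with the top 5% of cells, with 109 for the top 20%, 117 after thinning and 124 with detection counted over all kept cells. The count below -0.5 (210) was 750 and 102 under these limits, 338 with the mean over cells, 417 with the top 5% of cells and 116 with the top 20%. The actomyosin median (0.43) was 0.50 with the top 5%, 0.33 with the top 20% and 0.50 without Mki67 or Top2a cells. The cell cycle median (-0.16) was -0.26 with the top 5%, -0.24 with Tagln alone, -0.030 with Acta2 alone and 0.020 without Mki67 or Top2a cells, which removes the cells that carry these transcripts. The share of members with an Mki67 or Top2a UMI (41.5%) was 30.9% after thinning, 32.6% on the held-out UMIs, 45.2% with the top 20%, 45.1% with Acta2 alone and 45.0% under the stricter filter. The share of other cells (45.4%) was 34.4%, 34.9%, 44.9%, 45.0% and 46.4% in the same order, so members were not lower with the top 20% or with Acta2 alone. It was 43.4% without cells of very high UMIs and 47.3% without cells under 10000 UMIs. The causes of these shifts were otherwise not tested. No paired analysis was possible because each passage is 1 library and no result comes from a test. Genes at a few UMIs in 995 members, such as Myh11, are limited by depth.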

Other observations

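Several inducible genes outside the measured set were carried by a handful of members. Atf3, a stress-induced transcription factor, had a log2 ratio of 2.78 with 247 UMIs in members, but 1 cell held 189 of them, and without the 10 richest cells of each set the ratio was 0.19. Lcn2, the siderophore-binding lipocalin, had a ratio of 1.45 with 69.6% of its UMIs in members in 10 cells, and 0.37 without them. Ccl5, a lymphocyte chemoattractant, had 197 UMIs, of which 99.0% lay in 10 cells, and its ratio went from 1.06 to -4.40. The BMP antagonist Grem1 and the eosinophil chemoattractant Ccl11 lay lower in members, at 1.31 against 4.48 CPM and 1.85 against 6.86 CPM. These genes were chosen after their values were seen.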
